A study of Mus musculus with 6 samples.

Results

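The genes described here are 10 genes of steroid hormone synthesis and of the cholesterol supply and hormone signalling that serve it: Hsd3b1, Hsd3b6, Akr1cl, Scarb1, Mc2r, Mrap, Fdx1, Star, Cyp11a1 and Soat1. They were chosen by gene symbol, and every probe that the array's annotation assigns to 1 of these symbols was taken, dim probes included. Of the 10 genes, 9 have such a probe, 1 each, out of 20289 probes on the array. Soat1, which encodes the enzyme that esterifies cholesterol for storage, is not listed in the annotation used and is not analysed here.

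The arrays compare the urogenital ridge, the embryonic tissue of gonad and mesonephros, of wild-type Mf1 mouse embryos with that of Mf1 embryos homozygous for a deletion of Wt1, a transcription factor gene needed for gonad and kidney formation. All embryos were at E11.5 with 11 to 12 tail somites. Each genotype has 3 arrays, and the label of every array gives 5 embryos (4 female, 1 male), pooled. Nothing in the labels tells whether a genotype's arrays are separate pools or repeats of 1 pool, so p-values here reflect array-to-array spread, which can be technical. The labels name no promoter or Cre driver for the deletion. The values are deposited linear intensities from single-colour CodeLink arrays, on a scale where the median probe of each array lies near 0.96.

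Steroid hormones are made from cholesterol. Cells take it up through receptors such as SR-BI, encoded by Scarb1, store it as esters, and carry it into mitochondria with the help of StAR. There the side-chain cleavage enzyme Cyp11a1, fed electrons by ferredoxin (Fdx1), makes pregnenolone, which 3-beta-hydroxysteroid dehydrogenases turn into progesterone. In the adrenal cortex the ACTH receptor, encoded by Mc2r, and its accessory protein, encoded by Mrap, drive this chain. Fetal Leydig cells and the fetal adrenal cortex, the first steroid-making cells of the embryo, derive from a shared primordium in the urogenital ridge that depends on the nuclear receptor SF-1 (gene Nr5a1) and on Wt1.

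Wt1 itself was read first, to check the labels. Its brighter probe gave 44.1, 43.6 and 39.1 on the wild-type arrays and 14.3, 15.7 and 14.2 on the knockout arrays, all 3 knockout arrays being lower (log2 change -1.52, adjusted p = 1.13e-07 in limma's test). A dimmer Wt1 probe was also lower (log2 change -1.74, adjusted p = 0.00273, limma). Whether either probe lies inside the deleted part is not given in the labels, so the remaining signal is not read as transcript from the deleted part.

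Of the 9 measured genes, 4 fell in the knockout and none rose. Akr1cl, an aldo-keto reductase gene, read 5.06% of the wild-type signal in the knockout. Hsd3b1 and Hsd3b6 fell to 15.4% and 14.7%, and Scarb1 fell to 41.4%. Mc2r, Mrap and Fdx1 did not pass the test, and Star and Cyp11a1 were too dim to be tested with the other genes. The test was limma's moderated test across all 15062 probes that passed a filter on dim signal, with Benjamini-Hochberg adjusted p under 0.05, and 17.2% of those probes were called lower and 24.1% higher. The filter kept probes whose mean log2 intensity over the 6 arrays lay above that of an intensity of 0.217, called the limit below, under which a signal is described as near background. It passed 7 of the 9 probes, and those of Akr1cl, Hsd3b1 and Hsd3b6 passed only through their wild-type arrays, since their knockout means lie under the limit. A count of falls among the genes that passed is therefore no support for a shared direction. For Akr1cl, Hsd3b1 and Hsd3b6 the percentages above are ratios of a near-background signal to the wild-type signal, not measured levels left.

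**Figure D1:**
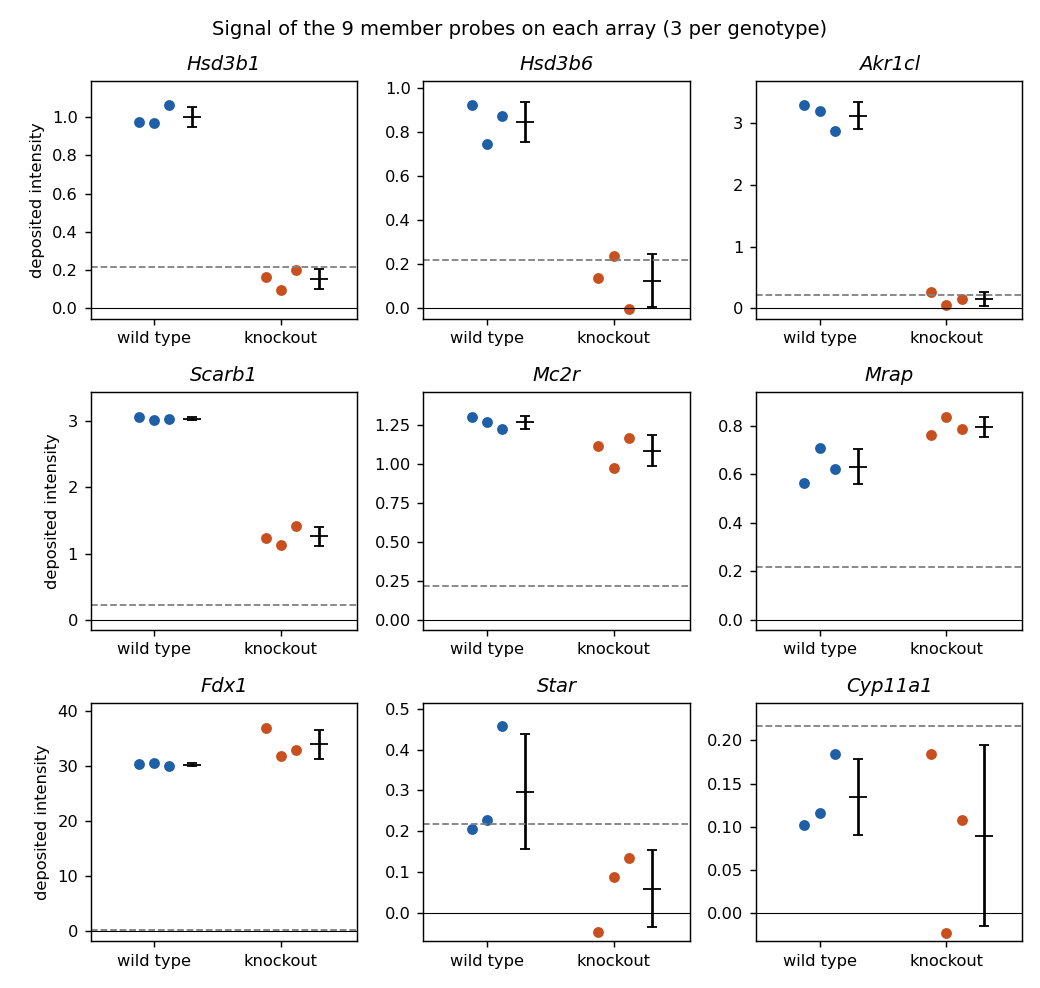
Deposited intensity (linear scale) of the 9 member probes on each array, with 3 wild-type points and 3 knockout points per gene; black bars are mean and SD, and the dashed line is the limit of 0.217. Akr1cl, Hsd3b1 and Hsd3b6 drop from clear wild-type signal to around the dashed line, Scarb1 stays above it in both genotypes, and Cyp11a1 lies under it on all 6 arrays.

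The 3 members that were called lower and had a knockout signal near background are shown with the 250 bases before their annotated start. This is the part of the promoter nearest to where transcription begins, and the account turns on these 3 genes. The sequences are RefSeq's on GRCm38.p6, 5′ to 3′ on the minus strand, on which all 3 genes lie: Akr1cl at chr1:65032760-65033009, Hsd3b1 at chr3:98859795-98860044 and Hsd3b6 at chr3:98814444-98814693. Capitals mark AGATAA on either strand, a letter string bound by GATA factors.
Akr1cl: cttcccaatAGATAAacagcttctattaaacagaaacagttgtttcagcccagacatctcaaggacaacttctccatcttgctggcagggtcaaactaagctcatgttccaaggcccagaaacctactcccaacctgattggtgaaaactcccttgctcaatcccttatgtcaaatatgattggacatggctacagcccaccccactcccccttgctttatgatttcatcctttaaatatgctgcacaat
Hsd3b1: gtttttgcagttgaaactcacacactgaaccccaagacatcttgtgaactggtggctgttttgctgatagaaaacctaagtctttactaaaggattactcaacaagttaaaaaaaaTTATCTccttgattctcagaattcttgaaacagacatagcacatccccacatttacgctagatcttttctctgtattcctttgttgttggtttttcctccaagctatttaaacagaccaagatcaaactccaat
Hsd3b6: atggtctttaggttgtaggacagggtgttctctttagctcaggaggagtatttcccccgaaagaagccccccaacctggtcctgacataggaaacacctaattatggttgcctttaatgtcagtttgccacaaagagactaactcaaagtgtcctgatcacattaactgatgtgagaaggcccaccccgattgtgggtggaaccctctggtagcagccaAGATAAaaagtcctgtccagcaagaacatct

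Each of these 3 windows holds AGATAA once, its farthest base lying 241 bases before the start in Akr1cl, 134 in Hsd3b1 (as its reverse complement) and 31 in Hsd3b6. Of all 32851 windows of 250 bases in the promoter table, 9.99% hold it. The shorter GATAA, in 22.6% of all windows, lies in these 3 and also in that of Fdx1, which was not called. In Fdx1 it is part of TGATAA, a string in 7.94% of all windows. AAGGTCA, an SF-1-type string, lies in 4.08% of all windows and in none of the 3. The looser SF-1-type string CAAGGNCA, in 5.53% of all windows, lies in that of Akr1cl. It reads CAAGGACA there, 191 to 184 bases before the start on the gene's own strand. The TATA string TATAAA lies in 12.4% of all windows and in none of the 3, while its variant TTTAAA, in 12.1%, lies 19 to 14 bases before the start in Akr1cl and 28 to 23 in Hsd3b1. GTGGGAG, a Wt1-type string, lies in 8.25% of all windows and in none of the 3. In all, 14 strings were searched on both strands, some of them overlapping (AGATAA holds the shorter GATAA), and those described here were picked with the matches in view. Of the 10 genes, 6 have an entry in the table.

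Akr1cl read 3.28, 3.19 and 2.87 on the wild-type arrays and 0.272, 0.0524 and 0.148 on the knockout arrays. The genotypes were far apart, and 2 of the 3 knockout readings lay under the limit. The means were 3.11 ± 0.219 and 0.157 ± 0.110 (SD, n = 3 each). Akr1cl was at least 13.3-fold lower, with knockout values under the limit raised to it, and the log2 change was -4.39 (95% interval -5.12 to -3.66, adjusted p = 2.35e-06 in limma's test).

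Hsd3b1 and Hsd3b6 encode isoforms of the enzyme that makes progesterone from pregnenolone; Hsd3b1 is the main isoform of mouse gonads and adrenals. Hsd3b1 read 0.972, 0.969 and 1.06 in wild type against 0.164, 0.0960 and 0.202 in the knockout. All 3 knockout arrays were under the limit and all 3 wild-type arrays well over it. Hsd3b1 was at least 4.61-fold lower, with a log2 change of -2.76 (95% interval -3.43 to -2.10, adjusted p = 3.13e-05, limma).

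Hsd3b6 read 0.922, 0.745 and 0.873 in wild type and 0.137, 0.239 and -0.00146 in the knockout. The highest knockout reading was just above the limit and the lowest was below 0, so the knockout readings are at the level where the array no longer resolves a signal. Hsd3b6 was at least 3.76-fold lower, with a log2 change of -2.61 (95% interval -3.44 to -1.78, adjusted p = 2.13e-04, limma). Both knockout signals are near background, so whether the 2 falls differ in size is not measured. The 2 genes are close paralogs, and whether the 2 probes tell them apart was not tested.

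Scarb1, the HDL receptor, read 3.07, 3.02 and 3.03 in wild type and 1.24, 1.13 and 1.41 in the knockout. It was the only member with a called fall whose knockout signal stayed clear of the limit on all 3 arrays, so its fold is measured on both sides. The means of 3.04 ± 0.0279 and 1.26 ± 0.142 (SD, n = 3 each) gave a 2.42-fold fall, a log2 change of -1.28 (95% interval -1.50 to -1.06, adjusted p = 3.18e-06, limma). At a fold of at least 2 with adjusted p under 0.05, 3.12% of the tested probes were called lower, and all 4 genes that fell are among them.

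**Figure D2:**
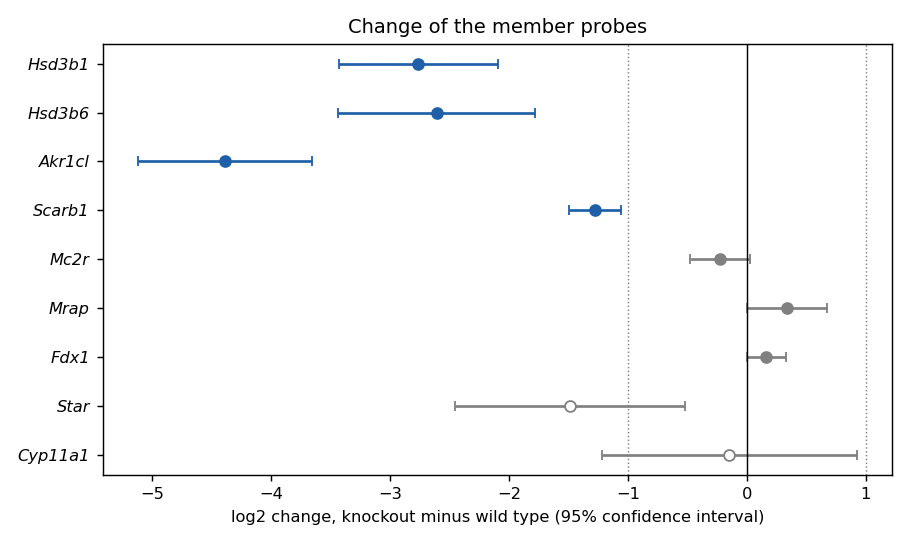
Log2 change (knockout minus wild type) of each member probe with its 95% confidence interval from limma; filled points come from the fit on probes that passed the filter, open points (Star and Cyp11a1) from the fit without it, and dotted lines mark a 2-fold change either way. The intervals of Akr1cl, Hsd3b1, Hsd3b6 and Scarb1 lie wholly left of the 2-fold line, and those of Mc2r, Mrap and Fdx1 reach 0.

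The changes of 8 pairs of genes were set against each other by the per-array difference of their log2 values, with an exact permutation test of the 6 arrays. With 3 arrays against 3, that exact permutation test cannot go below p = 0.10. Scarb1 and Mc2r, the pair measured above the limit on all arrays, differed by 1.05 on the log2 scale, Scarb1 having the larger fall (exact p = 0.10, two-sided, adjusted over the 8 pairs p = 0.114). That p is the smallest the arrays allow, and it does not pass 0.05. The other 7 pairs each hold Akr1cl, Hsd3b1 or Hsd3b6, whose knockout values are near background, so the sizes of those differences are not measured.

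The receptor arm of the pathway did not pass the test in either direction. Mc2r read 1.30, 1.27 and 1.22 in wild type and 1.11, 0.972 and 1.17 in the knockout. Every knockout array was below every wild-type array, by a small margin (log2 change -0.23, 95% interval -0.48 to 0.03, adjusted p = 0.138, limma). Mrap, whose protein brings the ACTH receptor to the cell surface, read 0.566, 0.709 and 0.624 in wild type and 0.762, 0.840 and 0.787 in the knockout. Its arrays did not overlap either, with the knockout above (log2 change 0.34, 95% interval -0.0034 to 0.68, adjusted p = 0.104, limma). Without an intensity trend in the variance prior Mrap was called higher, at adjusted p = 0.0499, and over all alternatives that tested it the adjusted p ran from 0.0499 to 0.297. A 2-fold change lies outside the interval of either gene, but the intervals cover the spread between arrays only, which can be technical.

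Fdx1, the ferredoxin that passes electrons to mitochondrial P450 enzymes in many tissues, was bright on all arrays. It read 30.3, 30.6 and 29.97 in wild type and 37.0, 31.9 and 32.9 in the knockout, and knockout array 1 stood above the other two. The log2 change was 0.16 (95% interval -0.0025 to 0.33, adjusted p = 0.106, limma). The median change of all tested probes was 0.09, and under quantile and cyclic loess normalization Fdx1 had changes of -0.04 and -0.02, so its direction depends on the scaling.

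For all 7 tested members the 2 genotypes were separate: the knockout arrays lay wholly below in 5 and wholly above in 2. Over all tested probes 21.4% lay wholly below and 31.4% wholly above.

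Star and Cyp11a1, which carry out the first committed steps of steroid synthesis, were near the bottom of the array's range. Star read 0.206, 0.226 and 0.459 in wild type and -0.0462, 0.0883 and 0.135 in the knockout. The wild-type readings lay above the knockout ones, 2 of them over the limit, while all 3 knockout arrays were under it. In the fit without the filter on dim probes, Star had a log2 change of -1.49 (95% interval -2.46 to -0.52, adjusted p = 0.0253, limma), where 12.1% of all probes were called lower. That call was lost without wild-type array 3, its highest reading (log2 change -1.11, adjusted p = 0.135), and without wild-type array 2 (-1.62, adjusted p = 0.0568), knockout array 1 (-1.34, adjusted p = 0.0518) or knockout array 2 (-1.43, adjusted p = 0.0615, limma). Wild-type arrays 1 and 2 read close to the limit, so no bound on the fold is given. Cyp11a1 read 0.102, 0.116 and 0.184 in wild type and 0.184, -0.0233 and 0.107 in the knockout. All 6 arrays were under the limit and the genotypes overlapped (adjusted p = 0.852 without the filter, limma). No statement on its presence or its change can be made at this signal.

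**Figure D3:**
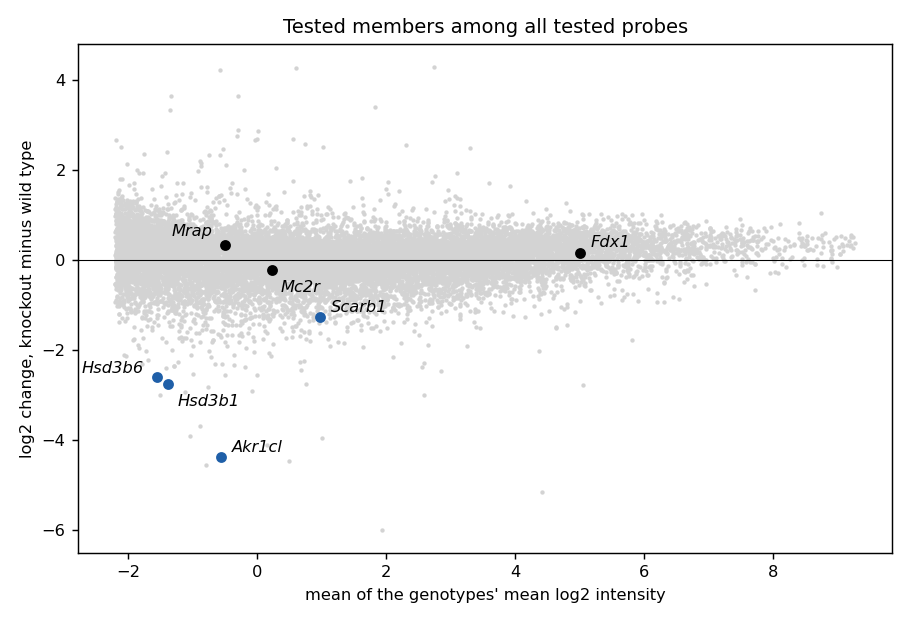
Log2 change (knockout minus wild type) against the mean of the genotypes' mean log2 intensities for all 15062 tested probes (grey), with the 7 tested members marked, those called lower in blue and the others in black. Akr1cl, Hsd3b1 and Hsd3b6 lie at the lower edge of the cloud, their mean over both genotypes lowered by near-background knockout signals, and Fdx1 lies within it. Scarb1 lies toward its lower side at a higher mean over both genotypes, with 1.53% of the tested probes having a larger decrease.

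Relatives of the members were read from lists of the same gene families and pathway. Each list's counts stand against 17.2% of all tested probes called lower and 24.1% called higher. Akr1cl, Hsd3b1 and Hsd3b6 count in the lists that hold them, and they passed the filter only through their wild-type arrays. The counts and medians of those lists are therefore no support for a shared direction. On the mouse assembly the 3-beta-hydroxysteroid dehydrogenase genes Hsd3b4, Hsd3b5, Hsd3b2, Hsd3b3, Hsd3b6 and Hsd3b1 lie in this order on chromosome 3, and the probes of 5 of them are named on the array. Hsd3b2 read 0.672, 0.682 and 0.684 in wild type and 0.796, 0.833 and 0.853 in the knockout, with a log2 change of 0.28 that did not pass (adjusted p = 0.123, limma). Beside it stand the falls of at least 4.61-fold in Hsd3b1 and at least 3.76-fold in Hsd3b6. Hsd3b5 did not pass (adjusted p = 0.698) and Hsd3b4 was too dim to be tested. Hao2, the next protein-coding gene beyond Hsd3b1, was also too dim.

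On the whole family list, 3 of 7 tested genes fell, 1 rose and 3 did not pass, with a median log2 change of -0.27 against 0.09 for all tested probes. Hsd3b1 and Hsd3b6 are among these falls, so the count and median are not a separate result about their relatives. The third that fell was Nsdhl, an enzyme of cholesterol synthesis, with a log2 change of -0.32 (adjusted p = 0.0114). Sdr42e1, a related short-chain dehydrogenase gene, rose by 0.38 (adjusted p = 0.00970). Hsd3b7, which acts in bile acid synthesis, was bright, at 17.8 ± 1.14 and 17.3 ± 0.530 (SD, n = 3 each), and did not pass (adjusted p = 0.682, limma). Hsd3b2, Hsd3b4, Hsd3b5 and Hsd3b7 were named after their values were seen.

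Among the aldo-keto reductases, NADPH-dependent enzymes that reduce steroids, sugars and aldehydes, 4 of 9 tested genes fell, 3 rose and 2 did not pass, with a median of 0.17. The shares over all tested probes were 17.2% lower and 24.1% higher. Akr1cl was the 1 member of this list that fell at least 2-fold. Akr1c18, the enzyme that inactivates progesterone, read 0.567, 0.634 and 0.736 in wild type and 1.65, 1.48 and 1.37 in the knockout, 2.33-fold higher (adjusted p = 3.98e-05, limma). Akr1e1 rose 1.62-fold (adjusted p = 6.80e-05), and Akr1c13 fell by 0.65 on the log2 scale (adjusted p = 0.00956).

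The wider list of P450 and hydroxysteroid enzymes had 14 tested genes out of 21 with a probe. Of these 6 fell, 3 rose and 5 did not pass, with a median log2 change of -0.43, and Hsd3b1 and Hsd3b6 are among the falls. Over all tested probes 17.2% were called lower and 24.1% higher, and 3 rises of 14 lie near the latter share. Besides Hsd3b1 and Hsd3b6, the largest falls were in Hsd17b11 and Hsd17b12. Hsd17b11, a lipid-droplet dehydrogenase gene, read 1.28, 1.17 and 1.14 in wild type and 0.366, 0.265 and 0.262 in the knockout, 4.06-fold lower (adjusted p = 1.04e-05, limma). Hsd17b12, which encodes a 3-ketoacyl-CoA reductase of fatty acid elongation, was at 3.92 ± 0.321 in wild type and 1.77 ± 0.148 in the knockout (SD, n = 3 each), a 2.21-fold fall (adjusted p = 5.05e-06, limma). These 2 enzymes act on lipids other than the main steroid chain as well. The count of rises dropped to 1 without wild-type array 1 or 3, and also under quantile and cyclic loess normalization and without an intensity trend. The late-acting P450 genes Cyp17a1 and Cyp21a1, named after their values were seen, were not tested. Cyp17a1 was at 0.187 ± 0.0316 in wild type and 0.171 ± 0.0626 in the knockout, both under the limit. Cyp21a1 was at 0.143 ± 0.0973 in wild type, under the limit, and 0.270 ± 0.189 in the knockout (SD, n = 3 each). That knockout mean is over the limit, but 2 of the 3 knockout arrays read under it.

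**Figure D4:**
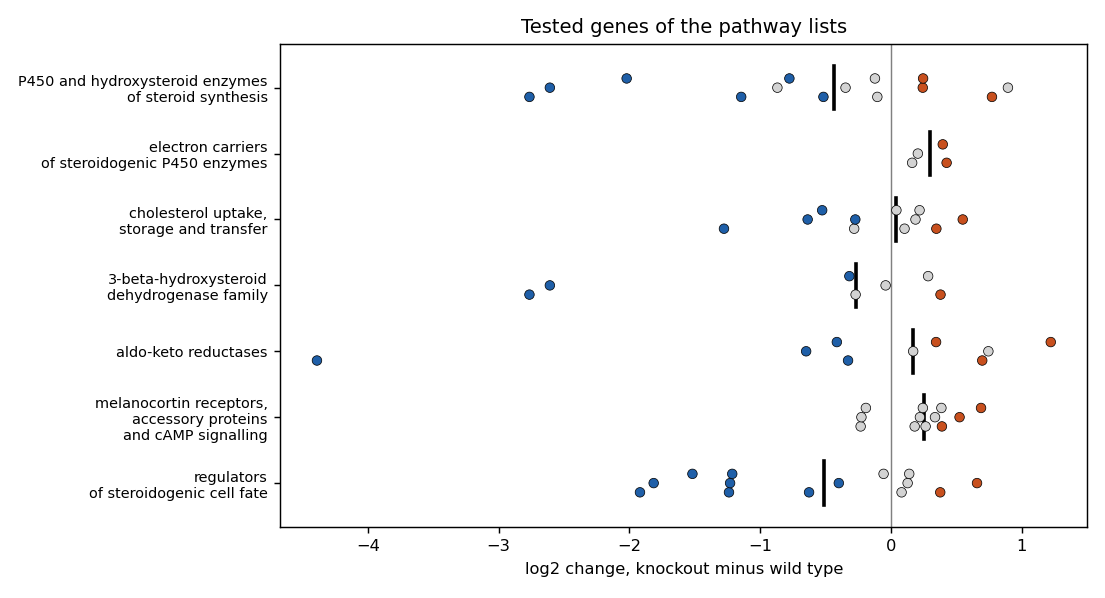
Log2 change (knockout minus wild type) of every tested gene of 7 pathway lists, 1 point per gene, blue where called lower, orange where called higher and grey where not passed; vertical bars are list medians. Akr1cl lies farthest left of the aldo-keto reductases at a fitted -4.39, which depends on the floor, Hsd3b1 and Hsd3b6 stand apart from their family, and the electron carriers show no fall.

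None of the 4 tested electron carriers fell, and 2 rose (median 0.30). Cyb5b, an outer mitochondrial cytochrome b5, rose 1.34-fold (adjusted p = 9.77e-04) and Cyb5r3, its reductase, 1.32-fold (adjusted p = 9.02e-04, limma). Under quantile normalization 1 was called higher, so this list's count depends on the scaling.

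Of 11 tested genes of cholesterol uptake, storage and transfer, 4 fell, 2 rose and 5 did not pass, with a median of 0.04. The shares over all tested probes were 17.2% lower and 24.1% higher, and 2 rises of 11 are not above the latter. Scarb1 was the 1 gene that fell at least 2-fold. Vldlr, a lipoprotein receptor gene, fell by 0.64 on the log2 scale on its brighter probe (adjusted p = 0.0215), but a second, dimmer probe of the same gene was called higher (adjusted p = 0.0341). Stard5, a cytosolic sterol carrier gene, fell by 0.53 (adjusted p = 0.00560), and Lipa, the lysosomal lipase that frees cholesterol, rose by 0.55 (adjusted p = 0.0222, limma). The count of rises was 0 without wild-type array 1 or 2, 1 without knockout array 2 or 3 and 5 without knockout array 1.

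Of 12 tested genes of melanocortin and cAMP signalling, none fell and 3 rose (median 0.25), and 3 of 12 is near the 24.1% of all tested probes called higher. They were Creb1, the cAMP-responsive transcription factor gene, 1.61-fold higher (adjusted p = 3.78e-05), Mc3r, a melanocortin receptor gene of the brain, 1.44-fold higher (adjusted p = 0.0213), and Prkar1a, a regulatory subunit of protein kinase A, 1.31-fold higher (adjusted p = 0.00167, limma). Second, dimmer probes of Creb1 and Mc3r did not pass.

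Of 14 tested regulators of the steroidogenic lineage, 8 fell (Wt1 among them), 2 rose and 4 did not pass (median -0.51), beside 17.2% lower and 24.1% higher over all tested probes. Lhx9, a homeobox gene of the early gonad, fell 3.78-fold, Nr0b1, which encodes the nuclear receptor DAX1, 3.52-fold, and Cited2, a cofactor needed for the adrenal primordium, 2.36-fold (adjusted p = 5.69e-08, 1.50e-06 and 4.01e-05, limma). Nr5a1, which encodes SF-1 and was named after its values were seen, read 2.78 ± 0.111 and 2.11 ± 0.0936, with 75.8% of the wild-type signal left (log2 change -0.40, 95% interval -0.59 to -0.21, adjusted p = 0.00287). A second Nr5a1 probe was too dim to be tested. Of the GATA factor genes on this list, also named after their values were seen, Gata6 fell 2.35-fold (adjusted p = 2.64e-06, limma). Gata4 did not pass (log2 change -0.06).

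The probes whose pattern over the 6 arrays was most like that of Akr1cl were found by the root mean square difference of log2 values centred on each probe's own mean. The closest was Slc9a3r1, a membrane scaffold gene, at 0.138, followed by Cd59a, a complement inhibitor gene, at 0.198. Kctd14 (0.574), Tulp2 (0.712) and the phosphatase gene Ptprv (0.713) came next. Slc9a3r1 read 0.559, 0.183 and 0.259 and Cd59a 0.399, 0.155 and 0.299 on knockout arrays 1 to 3. Like Akr1cl both were highest on knockout array 1 and lowest on knockout array 2, where all 3 genes read under the limit. The probes were picked for likeness over these same arrays, so the shared order is not a separate result. With 6 arrays in 2 groups this measure mostly ranks probes by a fall of similar size.

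In whole-tissue RNA, fewer cells of a type and less RNA per cell cannot be told apart. Markers of the gonadal primordium were lower beside the steroidogenic genes: 6 of 7 tested fell and none rose, and the summed intensity of all 9 markers went from 49.1 to 51.9 on the wild-type arrays to 10.8 to 11.6 on the knockout arrays, with Gata4 not passing (log2 change -0.06). Amhr2 carried most of that sum, at 30.6 ± 1.77 in wild type and 0.480 ± 0.0575 in the knockout (SD, n = 3 each), and the other 8 markers summed to 18.9 to 20.4 and 10.3 to 11.2. Of coelomic epithelium markers 4 of 8 tested fell and none rose, with sums of 59.7 to 62.8 and 42.7 to 43.9, or 32.4 to 36.0 and 14.6 to 15.2 without Krt18, the brightest. Markers of skeletal muscle went the other way, 7 of 9 tested higher with sums of 44.1 to 46.9 and 55.3 to 60.7, or 5.74 to 6.41 and 20.6 to 22.8 without Actc1, the brightest, and so did neuronal and neural crest markers, 8 of 8 higher with sums of 25.7 to 26.8 and 61.3 to 63.8. Of 6 markers of steroid-making cells with a probe 4 were tested: Inha, Nr5a1 and Hsd3b1 fell (Inha 3.10-fold) and Mc2r did not pass, so the list shares 3 genes (Mc2r, Star and Hsd3b1) with those described here. The sum of the 6 went from 6.80 to 7.24 on the wild-type arrays to 3.91 to 4.35 on the knockout arrays. Of the other lists, germ cell markers had 4 of 6 lower, endothelial markers 4 of 6 lower and 1 higher, nephric duct markers 1 of 6 lower and 2 higher, macrophage markers 1 of 7 lower and 2 higher, and erythroid markers 0 of 5 in either direction. Of all tested probes 17.2% were called lower and 24.1% higher, and the counts of the nephric duct and macrophage lists lie near those shares. The nephric duct sums still went from 16.8 to 17.9 in wild type to 22.5 to 26.0 in the knockout. Without Gata3, the brightest, they were 7.27 to 8.03 and 7.04 to 7.83. Liver markers, from an organ that also uses Scarb1, had 1 of 7 lower and 1 higher, and the placental marker Tpbpa was under the limit on all arrays. The liver sums went from 6.16 to 6.66 in wild type to 8.55 to 9.52 in the knockout. Without Ttr, the brightest, they were 5.62 to 5.97 and 5.20 to 5.59. The part of these marker changes in the falls of Akr1cl, Hsd3b1, Hsd3b6 and Scarb1 was not tested.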

How the data were processed

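Biotin-labelled total RNA was hybridised to single-colour CodeLink arrays, per the labels' protocols. The deposited values are linear intensities, 1 column per array; the authors' software, background correction and scaling are not stated in any label or header, and no detection flags come with them. From 153 to 246 values per array are at or below 0. Arrays correlated at r = 0.986 within wild type, 0.974 within knockout and 0.965 to 0.972 between genotypes (Pearson's r over probes, not independent replicates). The number of arrays limits the precision.

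No further normalization was applied. Intensities under 0.0811, the 5th percentile of positive values, were raised to that floor before log2 transformation. Probes with a value on at least 2 arrays per genotype and a mean log2 above the 25th percentile of probe means were tested with limma 3.58.1 in R 4.3.3 (lmFit, eBayes with an intensity trend; two-sided; Benjamini-Hochberg over all 15062 tested probes). Intervals are limma's 95% intervals and cover the spread between arrays only. Percentages of wild-type signal are ratios of mean intensities. A fold given as "at least" uses, per array of the lower genotype, the higher of the limit and the reading, as means of log2 values. Where a gene had several probes, the brightest with values on all arrays stood for it in its list. The fit was tested on simulated data.

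Gene symbols come from the platform's annotation in GEO, parts of which are dated: 15120 probes had 1 symbol, 38 had several and 5131 were not listed. Symbols were updated by Entrez identifier with RefSeq's gene table for GRCm38.p6, and the promoter sequences are RefSeq's. Every member probe is named, from each pathway list up to 4 called genes with the largest change, Wt1, and the 5 probes most like Akr1cl, with exceptions marked in the text. The members, lists and tests were chosen with earlier results of these data known. Same-numbered arrays of the genotypes did not deviate together (r from -0.0144 to 0.00416), so the numbers do not pair the arrays. Alternatives changed the normalization, the floor, the filter, the variance prior, the array weights and the arrays used.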

Additional observations from a re-analysis of the deposited data

How the results depend on the processing

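The 4 falls were recomputed under 16 alternatives each. All 4 were called lower in every alternative that tested them, with log2 changes of -4.84 to -3.95 for Akr1cl, -2.99 to -2.46 for Hsd3b1, -3.02 to -2.22 for Hsd3b6 and -1.36 to -1.20 for Scarb1. With the filter at the median of probe means 3 member probes were tested and 1 was called lower, Scarb1, because the other 3 falls are too dim on average for that filter. Without the filter 5 of 9 were called lower, Star added, and in leave-one-out fits added after seeing the data Star had log2 changes of -1.73 to -1.11 and lost its call without 4 of the 6 arrays. Sums of marker lists without their brightest gene were also chosen after seeing the data. Without an intensity trend 1 member, Mrap, was called higher, and in the other alternatives none. Leaving out any 1 array kept 4 called lower and 0 higher. With the replicate block 4 were lower and 0 higher, and the number of called probes went from 6221 to 6019. With no floor, the knockout reading of Hsd3b6 below 0 was left out and its log2 change was -2.22. Among the lists, the filter at the median of probe means took the falls from 6 to 3 for P450 and hydroxysteroid enzymes, from 3 to 1 for the 3-beta-hydroxysteroid dehydrogenase family and from 4 to 2 for aldo-keto reductases, with fewer genes tested. The folds of Akr1cl, Hsd3b1 and Hsd3b6 are limited by the background of the array. Their knockout means were near background, though Akr1cl on knockout array 1 (0.272) and Hsd3b6 on knockout array 2 (0.239) read over the limit. The level left in the knockout was not measured.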
